A study of Mus musculus with 20 samples.

Results

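Arginine and polyamine metabolism was followed through 9 listed genes: the arginases *Arg1* and *Arg2*, the inducible nitric oxide synthase *Nos2*, the arginine transporter *Slc7a2*, and *Odc1*, *Srm*, *Sms*, *Amd1* and *Sat1* of the polyamine route. They were chosen by name, and 8 of the 9 were found among the 16810 genes of the table. *Amd1* was not analysed here. All 8 had at least 1 CPM (counts per mega-read of library size, after the authors' normalization) in at least 2 samples, and 5 had at least 10 reads in every sample. The cells were eGFP-high cells sorted from the spinal cord of adult male CX3CR1+/eGFP mice on a C57BL/6 background, which carry eGFP at 1 copy of the *Cx3cr1* locus in every group, controls included. Monocytes and macrophages also use that promoter, so eGFP alone does not separate them from microglia. Non-injured (NI) mice gave 3 samples. Mice injured at 12 weeks of age received a lateral hemisection (HS) or a full transection (FT) at thoracic level 9, and a segment of 1 cm around the lesion was taken at 72 h, 1 week or 2 weeks, with 3 samples in each injured group except HS at 1 week, which had 2.

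Arginine is a branch point of metabolism in microglia and macrophages. Nitric oxide synthase turns it into nitric oxide and citrulline, while arginase splits it into urea and ornithine. Ornithine decarboxylase, encoded by *Odc1*, makes putrescine from ornithine, spermidine and spermine synthases (*Srm* and *Sms*) extend it, and spermidine/spermine acetyltransferase (*Sat1*) opens the way back. In the field, high *Arg1* is widely used as a mark of alternatively activated macrophages, and *Nos2* as one of classical activation.

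Depth in mega-reads (M) on the genes of the table was 3.87 to 34.1 M per sample (median 10.1 M), so that 1 read was worth 0.033 to 0.292 CPM, and limits that follow from reads cover counting error alone. Summed over 7 microglia markers (*Cx3cr1*, *P2ry12*, *Tmem119*, *Csf1r*, *Sall1*, *Aif1*, *Siglech*), each sample held 10308 to 19383 CPM. None of these 7 was at 0 in any sample. A list of 9 monocyte and macrophage genes summed to between 71.8 and 82.1 CPM in NI, and to between 256.4 and 1220.1 CPM in injured samples. In a bulk sample, fewer cells of a type and less RNA per cell cannot be told apart. The methods count more mice than libraries, how many were pooled per library is not stated, and labels do not say whether replicates came from separate animals, so p-values measure only the spread between these samples. For a set of 4 samples, HS 2 weeks replicate 1, FT 1 week replicates 2 and 3 and FT 2 weeks replicate 1, the immediate-early genes summed to between 592.8 and 1409.6 CPM, below every other sample (2316 CPM or more), and the values of *Odc1* below are given with this in view.

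*Arg1* (chromosome 10, 24915221 to 24927484, minus strand, GRCm38), which encodes the cytosolic arginase best known from the urea cycle of the liver, was the member with the widest range. In NI it had 1.37, 1.29 and 1.63 CPM in replicates 1 to 3. HS samples at 72 h had 20.1, 40.5 and 38.1 CPM, and FT samples at 72 h had 87.1, 24.2 and 17.0 CPM. All 6 samples at 72 h lay above all 3 NI samples. Of all genes, 49.0% after HS and 44.9% after FT were separate from NI at 72 h, in either direction. The 6 samples of *Arg1* also did not overlap with any sample of a later time, for which the share of all genes was not counted. The level was 8.85 and 5.53 CPM at 1 week after HS and 0.624, 9.62 and 7.13 CPM at 2 weeks after HS. After FT it was 5.78, 2.48 and 2.29 CPM at 1 week and 1.22, 1.04 and 1.30 CPM at 2 weeks. Both samples at 1 week after HS and all 3 at 1 week after FT were still above NI, whereas those at 2 weeks after FT lay within or below the NI range and those at 2 weeks after HS lay on both sides of it.

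**Figure D1:**
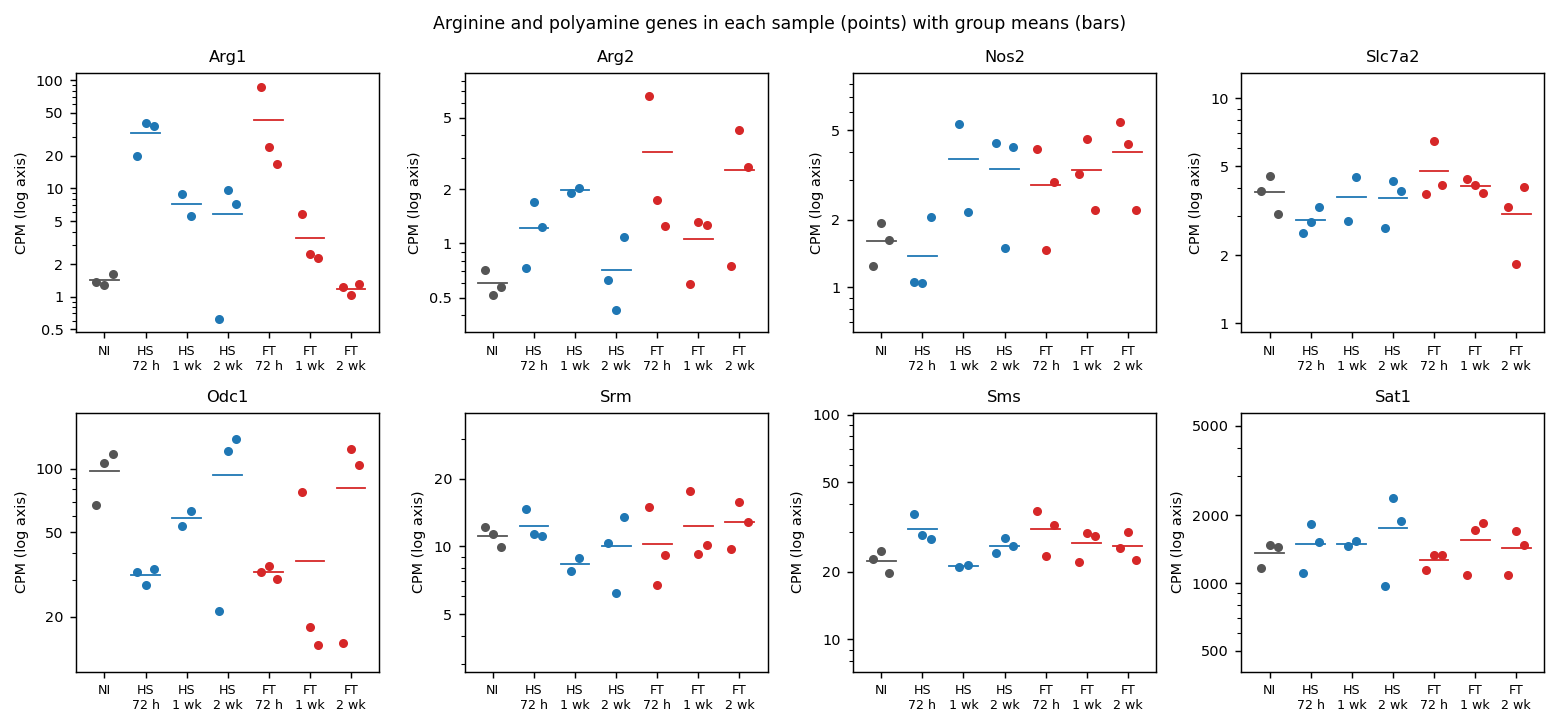
Each panel plots 1 gene, with CPM on a log axis against the 7 groups; points are samples (NI grey, HS blue, FT red) and bars are group means. *Arg1* stood at 17.0 to 87.1 CPM in the 6 samples at 72 h against 1.29 to 1.63 CPM in NI, while *Sat1* stayed between 965.7 and 2396 CPM.

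Differentially expressed (DE) genes were those with an adjusted p under 0.05 and a change of at least 2-fold (limma on log2 of CPM plus 0.5, over all 16810 genes). At 72 h after HS, 1 of the 8 members was DE, where 13.4% of all genes were. That member was *Arg1*, which rose by 4.06 ± 0.61 on the log2 scale (SE), or 16.6-fold (n = 3 against 3, limma adjusted p = 4.06e-05). At 72 h after FT, 2 of 8 members were DE, where 12.2% of all genes were. *Arg1* rose by 4.13 ± 0.61 (17.5-fold, limma adjusted p = 3.71e-05). Since 0.5 CPM was added, the fold changes of genes as low as *Arg1* in NI are understated. Without FT 72 h replicate 1, the highest sample, the FT estimate was 3.44 (adjusted p = 0.000411).

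At later times no member was DE against NI, at 1 week after HS (0 of 8, against 2.18% of all genes), 2 weeks after HS (0 of 8, 3.23%), 1 week after FT (0 of 8, 4.05%) or 2 weeks after FT (0 of 8, 4.88%). The numbers of members with an unadjusted limma p under 0.05 were 2, 0, 1 and 2 in these 4 comparisons. For *Arg1* the estimates were 1.97 ± 0.68 at 1 week and 1.20 ± 0.61 at 2 weeks after HS, with limma adjusted p of 0.153 and 0.339, and 0.96 ± 0.61 and -0.19 ± 0.61 at 1 and 2 weeks after FT, with adjusted p of 0.459 and 0.911. HS 2 weeks replicate 1, at 0.624 CPM (4 reads), decided the HS calls: without it *Arg1* was DE at 1 week (1.97, adjusted p = 0.0287) and at 2 weeks (2.19, adjusted p = 0.0112), and the edgeR likelihood ratio test on recovered reads called both with all samples (adjusted p of 0.0218 and 0.0315).

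Times were then compared directly. From 72 h to 2 weeks after HS, 1 of 8 members was DE, where 4.74% of all genes were: *Arg1* was higher at 72 h by 2.85 ± 0.61 (limma adjusted p = 0.00388). Without HS 2 weeks replicate 1 the difference was 1.86 (adjusted p = 0.0246). Between 72 h and 1 week after FT, again only *Arg1* of the 8 was DE (3.17 ± 0.61, adjusted p = 0.00212), against 3.44% of all genes. Between 72 h and 2 weeks after FT the difference of *Arg1* was 4.32 ± 0.61 (adjusted p = 5.62e-05), and it was the only one of the 8, against 3.81% of all genes. Between 72 h and 1 week after HS, where 6.03% of all genes were DE, 0 of 8 members were (3 at an unadjusted limma p under 0.05, 1 DE by the edgeR quasi-likelihood test and 2 by DESeq2). The estimate of *Arg1* there was 2.09 ± 0.68 with an adjusted p of 0.0546, and leaving out HS 2 weeks replicate 1 or 2, FT 72 h replicate 1 or FT 1 week replicate 1, none of them from the groups compared, took it under 0.05 (adjusted p of 0.00946, 0.0402, 0.0334 and 0.0423). Between 1 and 2 weeks 0 of 8 members were DE after HS (0.0119% of all genes) and 0 of 8 after FT (0.0714%), with 0 members at an unadjusted limma p under 0.05 in either and 0 by edgeR or DESeq2.

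Levels per kilobase of exon put *Arg1* beside the other members. In NI the order was *Sat1* (492 ± 62.4 CPM per kb, mean ± SD, n = 3), *Odc1* (28.6 ± 7.75), *Srm* (6.99 ± 0.705), *Sms* (3.73 ± 0.414), *Arg1* (0.642 ± 0.0805), *Arg2* (0.421 ± 0.0719), *Slc7a2* (0.418 ± 0.0787) and *Nos2* (0.364 ± 0.0771). *Arg2*, *Slc7a2* and *Nos2* lay within their spread of each other. At 72 h *Arg1* reached 14.8 ± 5.0 CPM per kb after HS and 19.2 ± 17.3 after FT, while *Odc1*, the next enzyme of the route, stood at 9.25 ± 0.811 and 9.53 ± 0.671. *Arg1* exceeded *Odc1* in 2 of the 3 samples of each lesion, and in HS replicate 1 (9.04 against 9.53 CPM per kb) and FT replicate 3 (7.63 against 8.87) it did not.

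By the rule set for the genes most like a member (the smallest root mean square difference of centred log2 levels over all 20 samples, among 15475 genes with a mean of at least 1 CPM in at least 1 group), the nearest to *Arg1* were *Ncapg* (0.867), *Cenpa* (0.879) and *Shcbp1* (0.905). The spread of *Arg1* itself on this scale was 1.83. *Ncapg* encodes a subunit of condensin, which compacts chromosomes at mitosis, and *Cenpa* the histone H3 variant of centromeres. *Ncapg* had 1.44 to 2.20 CPM in NI, rose to between 23.6 and 42.3 CPM at 72 h after either lesion and had 1.30 to 4.92 CPM later. All 12 genes of the proliferation list (among them *Mki67*, *Top2a* and *Cdk1*) were DE and higher at 72 h after HS and after FT. Of all genes, 13.4% and 12.2% were DE there. The sum of the list was 201.7 to 203.4 CPM in NI samples. It was 1162 to 2061 CPM at 72 h and 223.5 to 336.3 CPM later. Within HS at 72 h the order of samples differed: replicate 1 had the highest proliferation sum (2061 CPM) and the lowest *Arg1* (20.1 CPM).

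The monocyte and macrophage list moved with the injury as well. At 72 h its sum was 623.9 to 788.0 CPM in HS samples and 589.4 to 1220.1 CPM in FT samples, and at later times it was 299.3 to 546.1 and 256.4 to 507.2 CPM. At 72 h 4 of its 9 genes were DE after HS (13.4% of all genes) and 6 of 9 after FT (12.2%), all higher. At 1 and 2 weeks 3 and 2 were after HS (2.18% and 3.23% of all genes), and 2 and 2 after FT (4.05% and 4.88%). *Fn1*, which encodes fibronectin, held most of the sum (means of 12.9 CPM in NI and of 545.5 and 596.8 CPM after HS and FT at 72 h), and *Ccr2*, the chemokine receptor of inflammatory monocytes, had means of 18.0, 72.0 and 97.1 CPM. *Ly6c2*, which marks the same cells, had 1.08, 1.67 and 4.64 CPM, and none of the 9 genes was at 0 in any sample. Other genes of the list did not rise in this way: *Ly6c1* had 14.8, 10.4 and 12.3 CPM and *Vcan* 3.15, 2.54 and 3.64 CPM. FT 72 h replicate 1 was the highest of all samples in the sum of the list (1220.1 CPM), in *Arg1* and in *Arg2*. Within HS at 72 h the orders differed: replicate 1 had the highest sum (788.0 CPM) and the lowest *Arg1* (20.1 CPM). The order of the sum there was that of *Fn1* (684.1, 438.0 and 514.6 CPM in replicates 1 to 3). *Plac8* was also highest in replicate 1 (3.40, 2.92 and 1.03 CPM). *Ccr2* (34.6, 81.1 and 100.2 CPM) and *Ly6c2* (0.958, 1.79 and 2.26 CPM) were lowest in replicate 1, as *Arg1* was. The sort took eGFP-high cells, which were Ly6C-negative in the study's parallel staining of HS and non-injured mice. At 72 h the eGFP-positive cells of that staining split into low and high levels of the surface marker CD45. The study read these as most likely ramified microglia and activated macrophages. It judged contamination at 72 h most likely very low, but did not exclude infiltrating macrophages. It also cited a report that proposes *Arg1* is made by infiltrating macrophages and not by microglia after spinal cord injury. The part of cell division and of monocytes or macrophages in the level of *Arg1* was not tested.

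**Figure D2:**
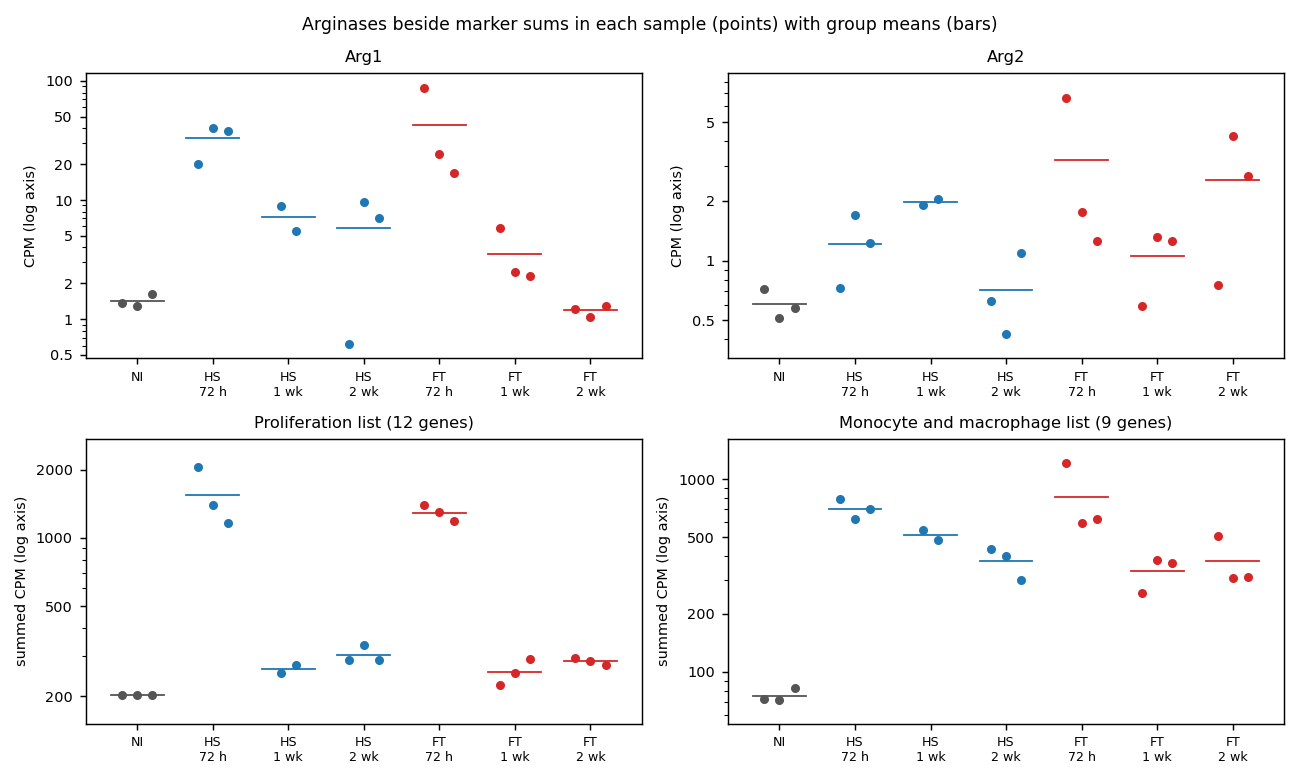
*Arg1* and *Arg2* in CPM, and the proliferation and monocyte lists as summed CPM, all on log axes, for each sample (points) with group means (bars). The proliferation sum was 223.5 to 336.3 CPM after 72 h while the monocyte sum stayed at 256.4 CPM or more in every injured sample.

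*Arg2* (chromosome 12, 79130777 to 79156301, plus strand), the mitochondrial arginase, was low throughout. It had 0.715, 0.515 and 0.576 CPM in NI, which is 12, 4 and 6 reads. Values at 72 h were 0.727, 1.70 and 1.23 CPM after HS, and 6.61, 1.75 and 1.25 CPM after FT. Every sample at 72 h was above every NI sample, by little in HS replicate 1, and FT replicate 1 was more than 3 times as high as any other at that time. Of all genes, 49.0% after HS and 44.9% after FT were separate from NI at 72 h, in either direction. At 1 week it had 1.91 and 2.04 CPM after HS and 0.593, 1.32 and 1.26 CPM after FT. Levels at 2 weeks were 0.624, 0.428 and 1.09 CPM after HS and 0.749, 4.27 and 2.67 CPM after FT. All samples at 1 week after HS and at 2 weeks after FT were above NI, and the other 2 groups overlapped with it.

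The increase at 72 h after FT passed the test (1.47 ± 0.46, 2.76-fold, limma adjusted p = 0.0234). It did not pass without FT 72 h replicate 1 (0.85, adjusted p = 0.175), without NI replicate 2 (1.41, adjusted p = 0.0739) or without NI replicate 3 (1.45, adjusted p = 0.0638). After HS at 72 h the estimate was 0.60 ± 0.46 (adjusted p = 0.337), and the FT and HS estimates differed by 0.86 ± 0.46 (adjusted p = 1.00). At 2 weeks after FT the estimate was 1.28 ± 0.46 (adjusted p = 0.101), and the likelihood ratio and quasi-likelihood tests of edgeR and DESeq2 called it on recovered reads (adjusted p of 0.019, 0.0422 and 0.016). The exons of *Arg2* overlap those of *Vti1b* and *Gm48780* on the other strand, and the strandedness of the counting is not stated. Unless strand was used, reads from the overlap cannot be told apart. The neutrophil gene *S100a8* was highest in the same sample as *Arg2* at 72 h and 2 weeks after FT, but not at 1 week after FT or at any time after HS. *S100a8* had 2.15, 93.5 and 20.1 CPM in FT 2 weeks replicates 1 to 3 and 19.5, 4.67 and 5.70 CPM in FT 72 h replicates 1 to 3. After HS it was highest in replicate 1 at 72 h, 1 week and 2 weeks (4.95, 12.1 and 23.9 CPM). *Arg2* had 0.727, 1.91 and 0.624 CPM in those samples and was higher in another replicate each time. For *S100a8* no separate test was made. *S100a8* had 35.3, 13.1 and 8.44 CPM in NI, where *Arg2* was low in all 3. Of a list of 10 neutrophil genes, 0 were DE at 2 weeks after FT (4.88% of all genes) and 1 was DE, and lower, at 72 h after FT (12.2%). The sum of the list was 779.1 to 837.6 CPM in NI, 516.9 to 629.1 CPM in FT samples at 72 h and 838.3 to 1004.7 CPM in those at 2 weeks, most of it *Csf3r* (728.2, 517.6 and 766.2 CPM on average), and *Camp* was at 0 in 1 sample of the series. At 2 weeks after FT the sum was highest in replicate 2 (1004.7 CPM), as *Arg2* was. At 72 h after FT it was lowest in replicate 1 (516.9 CPM), where *Arg2* was highest. With most of the sum from *Csf3r*, its order need not be that of the other genes of the list. *S100a9* had 7.61, 3.21 and 4.27 CPM in FT 72 h replicates 1 to 3, highest in replicate 1 as *S100a8* was. The part of neutrophils in the level of *Arg2* was not tested.

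Nearest in pattern to *Arg2* were *Gpr132* (0.512), *P2ry10* (0.526) and *Cytip* (0.528), against a spread of 0.75 for *Arg2* itself.

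*Nos2* (chromosome 11, 78920787 to 78960254, plus strand) competes with arginase for the same substrate. NI samples had 1.25, 1.93 and 1.63 CPM. At 72 h the HS samples had 1.06, 1.04 and 2.05 CPM and the FT samples 4.12, 1.46 and 2.94 CPM. Neither group at 72 h was separate from NI. At 1 week it had 5.31 and 2.17 CPM after HS and 3.19, 4.56 and 2.21 CPM after FT. At 2 weeks it had 4.37, 1.50 and 4.23 CPM after HS and 5.43, 4.35 and 2.21 CPM after FT. Each sample at 1 week after either lesion and at 2 weeks after FT was above each NI sample. The share of all genes separate from NI in this way was not counted for these groups, so no conclusion is drawn from it.

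*Nos2* was DE in no comparison. Its largest estimate against NI was 1.04 ± 0.41 at 2 weeks after FT (limma adjusted p = 0.146), which passed in the edgeR likelihood ratio test (1.33, adjusted p = 0.043) and in DESeq2 (1.33, adjusted p = 0.0368). At 72 h the estimate was -0.19 ± 0.41 after HS (95% interval -1.04 to 0.66) and 0.59 ± 0.41 after FT (-0.26 to 1.44). After HS it was lower at 72 h than at 1 week by 1.11 ± 0.46 (log2 difference -1.11, adjusted p = 0.126) and lower than at 2 weeks by 0.97 ± 0.41 (log2 difference -0.97, adjusted p = 0.135). DESeq2 called both (adjusted p of 0.0366 and 0.0314). Per kilobase of exon, the mean levels of *Arg1* and *Nos2* at 72 h after HS were 14.8 ± 5.0 and 0.313 ± 0.131 CPM per kb (SD, n = 3). At 2 weeks after FT they were 0.533 ± 0.0581 and 0.906 ± 0.371 CPM per kb, the only group where the mean of *Nos2* was the higher. At 2 weeks after HS they were 2.6 ± 2.08 and 0.762 ± 0.367 CPM per kb, and at 1 week after FT 1.58 ± 0.882 and 0.752 ± 0.268.

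*Slc7a2* (chromosome 8, 40862396 to 40922308, plus strand), a cationic amino acid transporter that brings arginine into macrophages, had 1.83 to 6.43 CPM over the 20 samples. The mean was 3.82 ± 0.719 CPM in NI (SD), and at 72 h 2.87 ± 0.387 CPM for HS and 4.76 ± 1.46 CPM for FT. The estimates against NI lay between -0.35 and 0.26, with 95% limits from -0.93 to 0.85, so that a change of 2-fold lay outside all 6 intervals. Its exons overlap *Gm26584* on the other strand.

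**Figure D3:**
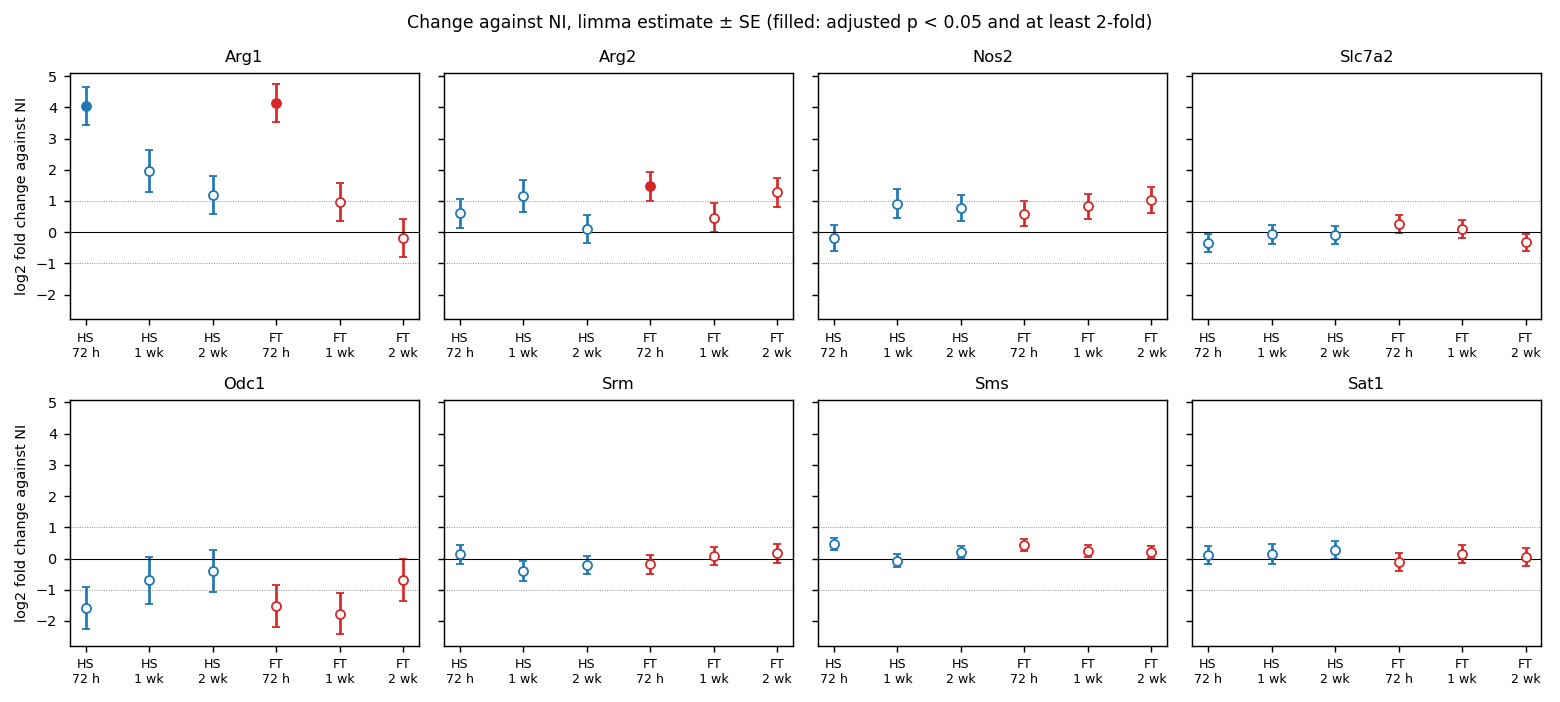
Estimated log2 fold change against NI (points, limma) with its SE (bars) in the 6 injured groups, 1 panel per gene, HS in blue and FT in red; filled points passed the test and dotted lines mark a change of 2-fold. Only *Arg1* at 72 h after both lesions and *Arg2* at 72 h after FT are filled.

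*Odc1* (chromosome 12, 17544794 to 17551505, plus strand), the first enzyme of polyamine synthesis, was lower at 72 h than in NI in every sample. In NI it had 67.5, 106 and 118 CPM. At 72 h it had 32.5, 28.4 and 33.6 CPM after HS and 32.4, 34.8 and 30.2 CPM after FT. These 6 samples lay close together and below all 3 NI samples. Of the members, 3 lay wholly above NI and 1 wholly below at 72 h after HS, and 2 above and 1 below at 72 h after FT, where 49.0% and 44.9% of all genes were separate in this sense. For the later groups that share was not counted, here or for *Arg1*, *Arg2* and *Nos2* above. At 1 week *Odc1* had 53.9 and 63.0 CPM after HS, both below NI, and 77.9, 18.0 and 14.7 CPM after FT. At 2 weeks it had 21.2, 121 and 138 CPM after HS and 15.1, 124 and 104 CPM after FT. In 3 groups single samples therefore differed from the rest of their group by more than 3-fold, and each 2-week group held samples below and above the NI range.

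Against NI the estimates were -1.58 ± 0.67 at 72 h after HS (2.98-fold lower, limma adjusted p = 0.0852) and -1.53 ± 0.67 at 72 h after FT (2.89-fold lower, adjusted p = 0.102), and neither passed. At 1 week after FT it was -1.76 ± 0.67 (adjusted p = 0.136). In this test all 20 samples share 1 estimate of the spread, which for *Odc1* includes the wide 1- and 2-week groups. When only the 6 samples compared were fitted, the estimates were the same and the adjusted p was 9.33e-05 after HS and 0.000421 after FT. The edgeR likelihood ratio test also called both (adjusted p of 0.0313 and 0.0442), and the quasi-likelihood test and DESeq2 did not. Without FT 2 weeks replicate 1 both passed (adjusted p of 0.0325 and 0.0403), and so did 1 week after FT (adjusted p = 0.0476). Without HS 2 weeks replicate 1 the HS value passed (adjusted p = 0.0445), and without FT 1 week replicate 1 the estimate at 1 week after FT was -2.50 (adjusted p = 0.0188).

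The genes nearest to *Odc1* in pattern, looked for after its values were seen, were *Klf2* (root mean square difference 0.344), *Cited2* (0.388) and *Dusp1* (0.392), against a spread of 1.04 for *Odc1* itself. *Klf2* encodes a Krüppel-like transcription factor, *Cited2* a transcriptional co-regulator and *Dusp1* a MAP kinase phosphatase induced as an immediate-early gene. The shared feature is a set of 4 samples with low values, which follows from picking the genes by their closeness to *Odc1* in these same samples. In HS 2 weeks replicate 1, FT 1 week replicates 2 and 3 and FT 2 weeks replicate 1, *Klf2* had 50.4, 38.7, 34.9 and 28.5 CPM, *Dusp1* had 84.5, 54.2, 43.4 and 26.5 CPM, and *Cited2* had 16.4, 10.8, 13.9 and 12.7 CPM. The lowest NI sample had 187 CPM of *Klf2*, 264 CPM of *Dusp1* and 45.1 CPM of *Cited2*. At 72 h *Klf2* had 58.1 to 121 CPM and *Dusp1* 128 to 180 CPM, all below NI.

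A list of 9 immediate-early genes (*Fos*, *Fosb*, *Jun*, *Junb*, *Egr1*, *Ier2*, *Nr4a1*, *Atf3* and *Dusp1*), written after these values were seen, summed to between 4019 and 6830 CPM in NI, and to between 2316 and 3248 CPM in the 6 samples at 72 h. In the 4 samples the sums were 1410, 908.2, 603.5 and 592.8 CPM, while the other samples at 1 and 2 weeks had 4019 to 8188 CPM. *Odc1* had its 4 lowest values of the series in the same 4 samples. At 72 h 1 of the 9 genes was DE, and lower, after HS (13.4% of all genes) and 1 after FT (12.2%). At 1 week after FT 1 was, also lower (4.05% of all genes). None was in the other 3 comparisons with NI (2.18%, 3.23% and 4.88%). Both *Odc1* and the immediate-early sum were then low at 72 h without exception and in 1 or 2 samples of 3 later groups. Since the list was written with these values known and holds *Dusp1*, this likeness is a description only. What moved them together was not tested.

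**Figure D4:**
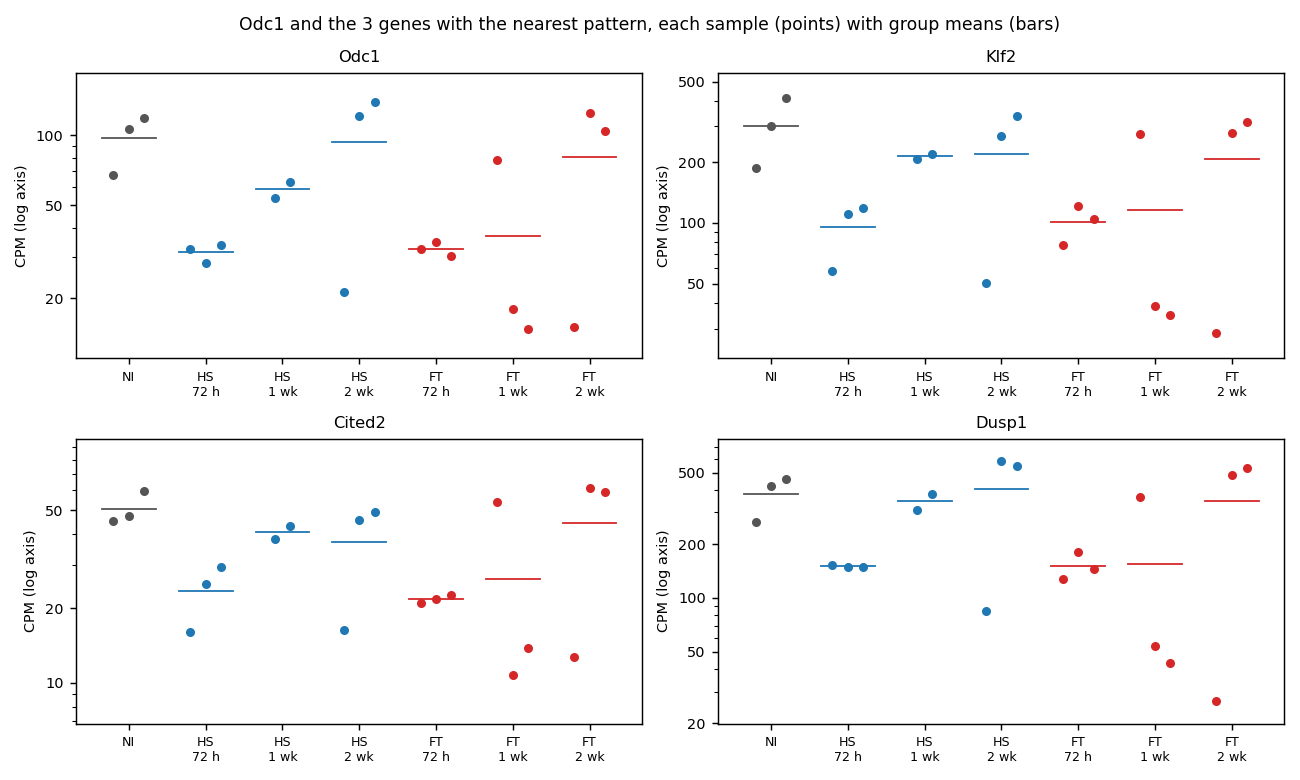
CPM on a log axis for *Odc1* and the 3 genes nearest to it, each sample as a point with group means as bars. In each panel the same 4 samples (1 of HS 2 weeks, 2 of FT 1 week, 1 of FT 2 weeks) are the lowest of the 20, except for *Cited2*, where HS 72 h replicate 1 (16.0 CPM) lies below HS 2 weeks replicate 1 (16.4 CPM).

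RefSeq sequences (GRCm38.p6, 250 bases before the start of each gene) were matched for 3 of the 8 members, *Odc1*, *Sat1* and *Sms*, and also for the 3 neighbours of *Odc1*. They are shown for *Odc1* and its neighbours because the neighbours were picked as the nearest to it in pattern. Printed are the 176 bases from 250 to 75 before the start, on the gene's strand: chr12:17544623-17544798 (plus) for *Odc1*, chr8:72318812-72318987 (plus) for *Klf2*, chr10:17722978-17723153 (plus) for *Cited2* and chr17:26508547-26508722 (minus) for *Dusp1*. Capitals mark TGACG or its reverse complement CGTCA, the core of the cAMP response element, and GGGCGG or its reverse complement CCGCCC, the GC box.
Odc1: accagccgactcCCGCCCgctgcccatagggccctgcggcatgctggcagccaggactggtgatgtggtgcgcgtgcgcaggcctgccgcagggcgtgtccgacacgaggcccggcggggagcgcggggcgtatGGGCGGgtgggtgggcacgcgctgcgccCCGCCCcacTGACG
Klf2: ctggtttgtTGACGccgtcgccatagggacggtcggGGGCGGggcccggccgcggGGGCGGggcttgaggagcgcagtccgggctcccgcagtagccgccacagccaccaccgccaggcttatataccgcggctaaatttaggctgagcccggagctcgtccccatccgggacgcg
Cited2: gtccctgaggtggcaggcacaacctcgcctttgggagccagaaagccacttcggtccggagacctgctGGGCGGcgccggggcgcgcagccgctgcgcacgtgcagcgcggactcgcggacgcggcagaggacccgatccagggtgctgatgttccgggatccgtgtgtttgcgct
Dusp1: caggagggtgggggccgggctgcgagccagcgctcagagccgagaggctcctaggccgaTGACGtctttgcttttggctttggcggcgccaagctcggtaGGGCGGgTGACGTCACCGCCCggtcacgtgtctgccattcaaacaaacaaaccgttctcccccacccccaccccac
Over the 250 bases, TGACG on either strand was found 1 time in *Odc1*, 1 time in *Klf2*, 0 times in *Cited2* and 3 times in *Dusp1*, where a pair of the matches overlap on opposite strands, and it is held by 17.8% of the 32851 promoters of the table. GGGCGG was found 4, 2, 2 and 3 times and is held by 32.7% of them. The matches are a description of the letters and were not tested as sites.

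*Srm*, *Sms* and *Sat1* were DE in no comparison. *Srm* (chromosome 4, 148591503 to 148594993, plus strand), which adds the first aminopropyl group, had 6.20 to 17.6 CPM over the 20 samples and a mean of 11.2 ± 1.13 CPM in NI. Its estimates against NI lay between -0.40 and 0.17, with 95% limits from -1.10 to 0.79. Both samples at 1 week after HS (7.76 and 8.90 CPM) lay below the NI range (9.98 to 12.2 CPM). The share of all genes separate in this way was not counted for that group. A 2-fold fall was not excluded there (-0.40, 95% interval -1.10 to 0.29). *Sms* (chromosome X, 157443855 to 157492287, minus strand), which adds the second, had 22.7, 24.7 and 19.8 CPM in NI. At 72 h it had 36.1, 29.2 and 27.9 CPM after HS, all above NI, and 37.1, 23.4 and 32.4 CPM after FT, with replicate 2 inside the NI range. The estimates were 0.46 ± 0.19 (limma adjusted p = 0.0767) and 0.44 ± 0.19 (adjusted p = 0.0986), below 2-fold and short of the threshold. A processed pseudogene, *Sms-ps*, is annotated, and reads from a near-identical copy may be split with it.

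*Sat1* (chromosome X, 155213132 to 155216449, minus strand) was the most abundant member per kilobase in every sample (348.1 to 863.7 CPM per kb). NI samples had 1166, 1482 and 1445 CPM, and the group means ran from 1267 ± 107 CPM at 72 h after FT to 1749 ± 725 CPM at 2 weeks after HS. HS 2 weeks replicate 1, with 965.7 CPM, and replicate 2, with 2396 CPM, were the lowest and the highest of the series. The 6 estimates against NI lay between -0.10 and 0.27, with 95% limits from -0.71 to 0.87, so that a change of 2-fold lay outside each interval.

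The lesions were also compared with each other at matched times. At 72 h, 1 week and 2 weeks, 0 of 8 members were DE between the lesions, and 0 of the 16810 genes were (0% each). By an unadjusted limma p under 0.05 there were 1, 0 and 2 members and 505, 724 and 438 genes, and the edgeR and DESeq2 tests called 0 members. For *Arg1* the FT minus HS difference was 0.07 ± 0.61 at 72 h (95% interval -1.19 to 1.33), -1.01 ± 0.68 at 1 week and -1.40 ± 0.61 at 2 weeks (-2.66 to -0.14, limma adjusted p = 1.00). *Arg2* differed by 1.17 ± 0.46 at 2 weeks (0.22 to 2.12, adjusted p = 1.00), with FT higher. The intervals are wide, so that a difference between the lesions of 2-fold was not excluded for *Arg1*, *Arg2*, *Nos2* or *Odc1* at any time. Nor was it for *Slc7a2* at 72 h (0.03 to 1.19) or *Srm* at 1 week (-0.21 to 1.18).

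The rest of the route was read from 3 lists that hold 46 further genes of arginine, proline and polyamine metabolism, of which 43 were analysed (*Ass1*, *Agmat* and *Amd2* were not analysed here, and *Azin2* is named *Adc* in the table). At 72 h 5 of the 43 were DE after HS (13.4% of all genes) and 3 after FT (12.2%), all higher. None was DE at 1 or 2 weeks after HS (2.18% and 3.23% of all genes). After FT 1 was at 1 week (4.05% of all genes) and 2 were at 2 weeks (4.88%). Among the polyamine genes the counts at 72 h were 4 of 20 after HS and 3 of 20 after FT, in the proline list 1 of 5 and 0 of 5, and in the arginine list 0 of 18 and 0 of 18. The median estimate of the polyamine list was 0.48 after HS and 0.42 after FT at 72 h, where that of all genes was -0.11 and -0.09.

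*Oaz1* encodes ornithine decarboxylase antizyme, which binds the *Odc1* product and sends it for degradation. NI samples had 26.6, 23.4 and 21.2 CPM. HS samples at 72 h had 49.0, 68.1 and 44.1 CPM and FT samples 44.2, 75.1 and 49.5 CPM, with no overlap with NI. The shares of all genes separate from NI in either direction were 49.0% and 44.9% there. It rose by 1.14 ± 0.25 after HS (limma adjusted p = 0.00189) and by 1.19 ± 0.25 after FT (adjusted p = 0.00143). This is the opposite direction to the *Odc1* estimates, which did not pass. The antizyme inhibitor gene *Azin1*, named after its values were seen, was also higher at 72 h, by less than 2-fold. Its estimates were 0.67 after HS (limma adjusted p = 0.0323) and 0.52 after FT (adjusted p = 0.102). A link of either gene to *Odc1* was not tested. At 1 and 2 weeks the estimates of *Oaz1* lay between -0.05 and 0.42 and none passed. A pseudogene, *Oaz1-ps*, is annotated.

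*Paox*, the peroxisomal oxidase that takes acetylated polyamines back to spermidine and putrescine, acts on the product of *Sat1*. It had 7.21, 7.46 and 7.96 CPM in NI and 11.4 CPM or more in all 17 injured samples, up to 30.7 CPM in FT 2 weeks replicate 1. Of the 43 genes, 2 (*Paox* and *Asl*, the latter named after its values were seen) lay beyond NI in all 17 injured samples, as did 7.23% of all genes and 0 of the 8 members. *Paox* rose at 72 h after HS (1.06 ± 0.28, limma adjusted p = 0.00811) and at 72 h (1.33 ± 0.28, adjusted p = 0.00164), 1 week (1.20 ± 0.28, adjusted p = 0.0103) and 2 weeks after FT (1.43 ± 0.28, adjusted p = 0.00191). At 1 and 2 weeks after HS it had 1.10 ± 0.32 and 0.92 ± 0.28, with adjusted p of 0.0732 and 0.0682.

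*Eif5a*, the translation factor that carries hypusine, a residue made from spermidine, rose at 72 h after HS (1.71 ± 0.50, limma adjusted p = 0.0145). Its values were 774, 327 and 522 CPM there against 201, 212 and 87.2 CPM in NI. After FT at 72 h it had 619, 141 and 533 CPM (1.21 ± 0.50, adjusted p = 0.0834), with replicate 2 inside the NI range. Enzymes of the methionine salvage pathway, which recycles the by-product of spermidine synthesis, were DE singly: *Adi1* at 72 h after HS (1.02 ± 0.38, adjusted p = 0.0494) and *Apip* at 72 h after FT (1.13 ± 0.26, adjusted p = 0.00259). *Apip* at 72 h after HS fell short of 2-fold (0.99 ± 0.26, adjusted p = 0.00633).

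*Pycrl*, a reductase of the last step of proline synthesis, which also starts from ornithine, rose at 72 h after HS (1.23 ± 0.20, limma adjusted p = 7.61e-05). At 72 h after FT it was just under 2-fold (0.98 ± 0.20, adjusted p = 0.000844), with 38.7 to 40.9 CPM against 17.9 to 21.1 CPM in NI. *Gch1*, the first enzyme in the synthesis of tetrahydrobiopterin, a cofactor of nitric oxide synthase, was the 1 gene of the arginine list that passed. It had 3.99, 3.60 and 2.69 CPM in NI and 5.80, 13.3 and 13.4 CPM at 2 weeks after FT (1.46 ± 0.41, adjusted p = 0.0264), and at 72 h it was near NI (0.09 ± 0.41 after HS and 0.15 ± 0.41 after FT). The 5 calls at 72 h after HS became 2 without HS 72 h replicate 1, and the 1 call at 1 week after FT became 0 without FT 1 week replicate 1. At 2 weeks after FT, 1 of the 2 calls was left without NI replicate 2 or 3 or FT replicate 2 or 3. Without NI replicate 1 the 3 calls at 72 h after FT became 5.

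**Figure D5:**
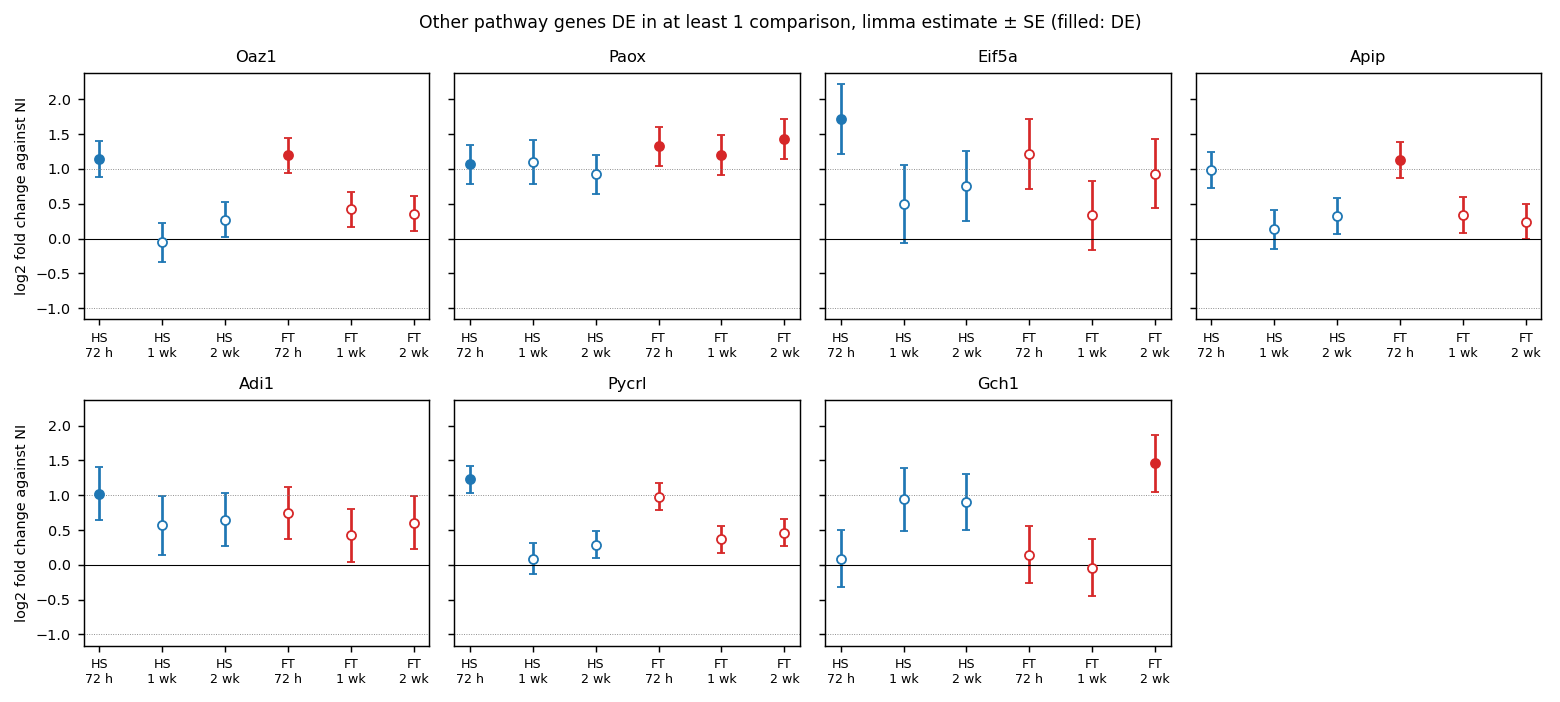
Estimated log2 fold change against NI (points, limma) with SE (bars) for the 7 further pathway genes that were DE in at least 1 comparison; filled points were DE. *Oaz1* is filled at 72 h after both lesions and *Paox* in 4 of the 6 groups, while *Gch1* is filled at 2 weeks after FT alone.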

How the data were processed

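Polyadenylated RNA of sorted eGFP-high cells was sequenced in 20 samples of 7 groups. Per the methods and the labels, the authors trimmed reads, mapped them with TopHat2 2.0.9 to mm10, counted them per gene with HTSeq 0.5.4p3, retained genes reaching 10 counts in 2 replicates or more, and scaled libraries with edgeR 3.3.6. The signal that the authors deposited is this normalized count in CPM. Whole reads were recovered for 336200 of 336200 values (100%, within 0.001 of a step). Columns summed to 777426 to 830481 CPM (NI) or 878070 to 1202186 CPM (injured). Strandedness and sequencing batches are not given in the sources used here. Over the 19 replicate pairs the chi-square per degree of freedom was 9.79 to 91.8, so no library was counted as a repeat.

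Values were taken to log2 after adding 0.5 CPM and fitted with limma 3.58.1 (R 4.3.3) with a trend in the variance and a mean for each of the 7 groups over all 20 samples, and p-values were adjusted by Benjamini-Hochberg over 16810 genes. The 15 comparisons were 6 with NI, 3 of FT with HS and 6 between times. As alternatives, 0.1 or 1 CPM was added instead, genes under 1 CPM in all but 1 sample were dropped (a minimum of 2 samples), the fit held the 2 groups alone, columns were rescaled (median of ratios, quantiles, equal totals), the fold limit was lifted, a replicate block was added, recovered reads were tested with edgeR 4.0.16 and DESeq2 1.42.0, and each sample was left out in turn. The fits were tested on simulated data. Coordinates and exon lengths are from GENCODE M21 (GRCm38). Members and lists were chosen with earlier results of these data known. Besides the members, genes of the pathway lists that were DE against NI were named, and the 3 genes nearest in pattern to each member that was DE against NI; the genes nearest to *Odc1* and the immediate-early list were added after the values were seen. In the microglia and the monocyte lists, 1 marker each is not reported here.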

Additional observations from a re-analysis of the deposited data

Results flagged for a closer look

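The level of *Arg1* differed between times within a lesion by a direct test, in 3 comparisons. It was higher at 72 h than at 2 weeks after HS by 2.85 on the log2 scale (limma adjusted p = 0.00388), higher at 72 h than at 1 week after FT by 3.17 (adjusted p = 0.00212), and higher at 72 h than at 2 weeks after FT by 4.32 (adjusted p = 5.62e-05). Since both times share the NI samples, each value is also the difference between the 2 changes from NI.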

How the results depend on the processing

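For the members, 3798 of the values under an alternative stayed on their side of the threshold (estimates that were not DE could change sign), 39 passed the threshold newly and 3 (*Arg2* at 72 h after FT, given above) no longer passed; none reversed while DE. The 5 *Arg1* calls at 72 h (against NI and against later times) held under each of the 32 alternatives. The cause of the changes was not tested. With only the 2 groups fitted, members DE were 2 at 72 h and 2 at 1 week after HS, and 3 at 72 h after FT. Between 72 h and 1 week after HS that fit gave 1. Equal column totals gave 2 members at 72 h after HS and 3 at 72 h after FT. The edgeR likelihood ratio test gave for HS 2 at 72 h and 1 at each later time, and for FT 3 at 72 h and 2 at 2 weeks. Between 72 h and either later time after HS it gave 2. DESeq2 gave 2 at 2 weeks after FT and 2 between 72 h and either later time after HS, and the quasi-likelihood test 1 at 2 weeks after FT and 1 between 72 h and 1 week after HS. Quantile scaling gave 1 at 2 weeks after FT, and 1 CPM added gave 1 between 72 h and 1 week after HS. Leaving out single samples, the members DE against NI ranged from 1 to 2 at 72 h after HS, from 1 to 3 at 72 h after FT, and from 0 to 1 in the later groups; between 72 h and 1 week after HS they ranged from 0 to 1, and between 72 h and 2 weeks after HS from 1 to 2.

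Pathway genes DE at 72 h after HS were 3 with quantile scaling, 2 with equal totals and 14 with no fold limit, and 2 to 7 without single samples. No fold limit gave 1 at 2 weeks after HS, 8 at 72 h and 2 at 1 week after FT, and equal totals gave 0 at 1 week after FT. At 1 week after HS, 1 gene was DE with the 2 groups alone, quantile scaling, the likelihood ratio test or DESeq2, and 0 to 1 without single samples. Without single samples they were 3 to 5 at 72 h, 0 to 1 at 1 week and 1 to 2 at 2 weeks after FT. The median correlation of deviations was 0.0017 over 57 same-numbered pairs and 0.00065 over 114 others, so no pairing by replicate number was seen there. Pairing was not excluded: deviations were centred within small groups, and single pairs ranged from -0.44 to 0.44. Of the 20 samples, 9 correlated best with their own number, and the number expected without pairing was not computed. With a replicate block, 1 pathway gene was DE at 1 week after HS, and no other count of members or pathway genes moved by over 1.5 times.

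Over all genes, DE counts at 72 h, 1 week and 2 weeks ranged for HS from 1900 to 4585, 166 to 652 and 396 to 839, and for FT from 1719 to 4060, 476 to 1182 and 656 to 1373, most of the highest without the fold limit. Between lesions the highest counts were 1, 8 and 1. Between times the ranges were 545 to 1604, 517 to 1718 and 0 to 6 after HS, and 361 to 888, 495 to 971 and 4 to 40 after FT. Equal totals moved the median of all genes at 72 h to -0.52 after HS and -0.48 after FT, and the share of DE genes that were higher from 67.8% to 16.2% and from 66.6% to 18.5%; in the later groups the shares were 53.3%, 36.0%, 26.0% and 25.9% against 77.9%, 75.3%, 70.5% and 72.2%. Depth limits *Arg1*, *Arg2* and *Nos2* most, which had as few as 4, 2 and 5 reads in a sample.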
